A study of Mus musculus with 4 samples.

Results

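MHC class I molecules and the genes that load them with peptide were followed in mouse thymic epithelial cells (TECs) after induced loss of Meis1, a homeobox transcription factor. The set held 10 genes: the classical heavy chain genes H2-K1 and H2-D1, the non-classical heavy chain gene H2-T23, the light chain gene B2m, the transporter genes Tap1 and Tap2, the loading factor genes Tapbp and Tapbpl, the trimming enzyme gene Erap1 and the regulator gene Nlrc5. They were found by gene name or RefSeq accession among 41174 probes for 19886 gene symbols, and had 18 probes in all. Of these, 17 were well above background on all 4 arrays, and so at least 1 probe of each of the 10 genes passed the filter on dim probes in both groups.

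Each group was 2 pools of 6 mice, and each pool was put on 1 single-colour (Cy3) array. The control pools (labelled WT) came from K14-CreER Meis1fl/+ mice, with 1 floxed and 1 normal allele, and the Meis1-CKO pools (labelled KO) from K14-CreER Meis1fl/fl mice. All mice were 3 weeks old, carried the tamoxifen-inducible recombinase and were given tamoxifen (1 mg, 3 daily injections), so the controls could lose 1 allele too. CD45-negative EpCAM-positive TECs were sorted 4 days later, and 10 ng of RNA was amplified. The recombinase is driven by the keratin 14 promoter, which is active in basal epithelial cells and medullary TECs rather than in all TECs.

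MHC class I molecules consist of a polymorphic heavy chain, beta-2 microglobulin and a peptide. The peptides come mostly from proteasomes, are carried into the endoplasmic reticulum by the transporter TAP, are trimmed there by ERAP1, and are fitted into the heavy chain with the help of tapasin (Tapbp) and its relative TAPBPR (Tapbpl). NLRC5 is a transactivator that acts on class I promoters through a protein complex bound to conserved promoter boxes, and interferons raise the expression of most of these genes. In the thymus, class I molecules on TECs present the peptides on which CD8 T cells are selected.

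The promoters of the classical heavy chain genes and of B2m are shown because they carry letters of boxes through which these genes are known to be regulated. RefSeq start sites (GRCm38.p6) were given for 7 of the 10 genes, and not for Tap2, Tapbpl and Nlrc5. H2-K1 had 2 promoter entries, and the first listed was used, so its distances hold for that start. The 250 bases before each start are printed 5′ to 3′ on the gene's strand. Capitals mark TGACG and ATTGG where exactly 20 bases lie between them (core letters of the X2 and Y boxes), AANNGAAA or the longer run of GAAA, any 2 bases and GAAA, which contains it (letters of interferon-type elements), and GGGGA directly followed by TTCCCC (an NF-kappaB-type site). Both strands were searched, a match on the other strand appears as its reverse complement, and the motifs were chosen after the sequences had been seen.
H2-K1, chr17:34000348-34000597, minus strand: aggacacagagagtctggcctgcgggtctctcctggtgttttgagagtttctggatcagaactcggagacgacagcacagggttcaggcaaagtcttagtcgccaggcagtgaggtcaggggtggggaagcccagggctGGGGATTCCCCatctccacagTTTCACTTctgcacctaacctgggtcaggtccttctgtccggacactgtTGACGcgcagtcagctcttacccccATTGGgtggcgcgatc
H2-D1, chr17:35262844-35263093, plus strand: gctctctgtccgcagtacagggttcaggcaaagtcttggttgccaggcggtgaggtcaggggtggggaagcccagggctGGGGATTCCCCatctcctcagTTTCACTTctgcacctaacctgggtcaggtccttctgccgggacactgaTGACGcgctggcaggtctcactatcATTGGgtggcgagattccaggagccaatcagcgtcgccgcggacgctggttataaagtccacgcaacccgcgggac
B2m, chr2:122147437-122147686, plus strand: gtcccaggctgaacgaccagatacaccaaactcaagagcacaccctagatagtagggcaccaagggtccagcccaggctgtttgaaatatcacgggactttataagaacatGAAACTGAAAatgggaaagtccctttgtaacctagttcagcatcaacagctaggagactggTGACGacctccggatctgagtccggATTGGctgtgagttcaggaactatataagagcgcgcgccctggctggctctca

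All 3 windows held TGACG and ATTGG at the same spacing, beginning 41 bases before the start of H2-K1, 101 before that of H2-D1 and 78 before that of B2m. This pair was found in 30 of 32851 promoter windows of the same length (0.0913%), among them that of the class I gene H2-M3, and in none of the other 4 windows of the set. H2-K1 and H2-D1 also shared the NF-kappaB-type letters, found in 10 of the windows (0.0304%). AANNGAAA was in the windows of H2-K1, H2-D1, B2m and H2-T23 (21.3% of all windows), and the longer run in those of B2m and H2-T23 (2.98%). A match is a description of the letters and not evidence of binding.

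**Figure D1:**
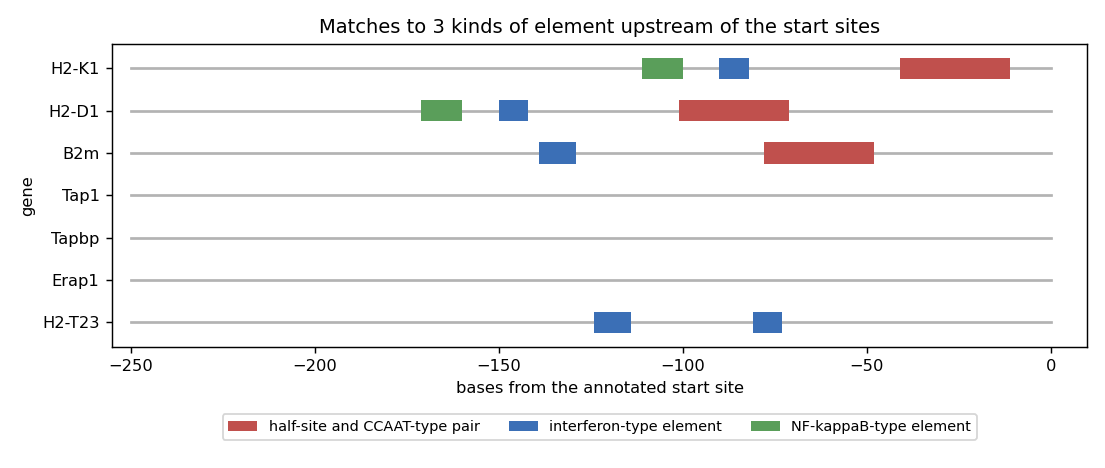
Matches to 3 kinds of element in the 250 bases before the annotated start site of the 7 genes with a promoter entry. The x axis gives the distance from the start site in bases, and the coloured blocks are matches. H2-K1, H2-D1 and B2m hold the TGACG and ATTGG pair (red), and no block is drawn for Tap1, Tapbp and Erap1.

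The arrays were even in quality, although Meis1-CKO 2 stood apart. Between 58.6% and 63.6% of spots were well above background and 0 were saturated. Over features with a value on all arrays, Meis1-CKO 2 correlated at 0.856 to 0.884 with the other arrays, which correlated with each other at 0.936 to 0.943. Control 1 and Meis1-CKO 1 shared slide 1 and its scan, and control 2 and Meis1-CKO 2 shared slide 2. The more strongly hybridising of 2 Meis1 probes gave -0.12 and -0.91 in the controls, against -0.44 and -2.08 in Meis1-CKO, so these groups overlapped. The other probe gave -3.19 and -3.23 in the controls, both well above background, against -3.77 and -4.74 in Meis1-CKO, neither above it. The sources used here do not say whether either probe lies in the deleted part. Levels here and below are log2 signals relative to each array's 75th percentile, and differences are Meis1-CKO minus control on that scale. Paired values are for pool 1 and then pool 2. The design names 2 independent experiments. The p-values, SEs and intervals rest on the spread between these 4 pools, which limma draws towards the spread over all features. Of the 5.51 degrees of freedom, 2 come from the pools.

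The classical class I genes and B2m had similar levels in both genotypes. The probe that stands for H2-K1 (chromosome 17, positions 34133055 to 34133114 on mm9, minus strand) gave 9.20 and 9.03 in the controls, against 9.15 and 9.0 in Meis1-CKO. The 4 values spanned 0.20, and 1.26% of all features had a smaller span, while the median span was 0.53 over 75 features at a mean level of at least 7 and 1.09 over all features. In the raw processed signal this probe gave 55026 and 71473 in the controls and 61970 and 78059 in Meis1-CKO. None of its spots was flagged as saturated. This probe was printed 10 times per array, and its spots had SDs of 0.02 to 0.07 within an array. Its span was not compared with that of features averaged over as many spots. The limma difference was -0.04 (SE 0.43, n = 2 pools each, adjusted p = 1), with a 95% interval from -1.11 to 1.03.

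Other H2-K1 probes also had small differences, at other brightness. Their differences were -0.001 (for a clone-derived sequence without a genome position), -0.04 and 0.08. In the controls and then in Meis1-CKO, the second of them read 7.64, 7.12, 7.40 and 7.28. The probe with a difference of 0.08 read 4.13, 4.27, 4.03 and 4.54 in that order. The clone-derived probe read 7.30, 7.15, 7.26 and 7.20. The narrow span of the main probe thus held for the clone-derived probe but not for the others. The third also shared a run of 20 bases with an H2-Q10 probe. The first of these probes matched the main H2-K1 probe at 49 of 57 aligned bases, so both may bind the same RNA and are not independent readings.

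H2-D1, the heavy chain gene of the D locus, stood at 8.25 and 7.80 in the controls, against 8.16 and 8.07 in Meis1-CKO. Both Meis1-CKO values lay between the controls. The difference was 0.09 (SE 0.44, 95% interval -1.02 to 1.20). A second H2-D1 probe read 7.79, 7.19, 7.75 and 7.74 in the same order, a difference of 0.26 (SE 0.47). The array annotation assigns that probe to H2-Q2 as well, and 47 of 50 aligned bases matched an H2-Q2 probe, so its signal cannot be given to H2-D1 alone.

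B2m, which encodes the light chain shared by all class I heavy chains, had control levels of 8.22 and 7.63 and Meis1-CKO levels of 8.08 and 7.93. Here too the Meis1-CKO pools lay between the controls, and the difference was 0.08 (SE 0.46, 95% interval -1.07 to 1.23). A B2m probe with 10 spots per array read 6.13, 5.64, 5.86 and 6.02 in the same order, with spot SDs of 0.03 to 0.04. The 2 control pools thus differed by 0.49 on that probe, more than the mean difference between genotypes of 0.05. Another B2m probe, from a clone sequence (chromosome 2, positions 121974599 to 121974658 on mm9), was lower in signal and had both Meis1-CKO pools above both controls, at 2.72, 2.50, 2.74 and 3.13, with a difference of 0.33 (SE 0.45).

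H2-T23 encodes Qa-1, a heavy chain that presents a narrow range of peptides to inhibitory receptors. Its control levels were 5.79 and 5.57, and its Meis1-CKO levels 5.77 and 6.05. Meis1-CKO 2 was the highest array, and Meis1-CKO 1 lay between the controls. The difference was 0.23 (SE 0.44, 95% interval -0.86 to 1.32). Its probe shared a run of 28 bases with an H2-Q7 probe, so related heavy chain transcripts could add to this signal.

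**Figure D2:**
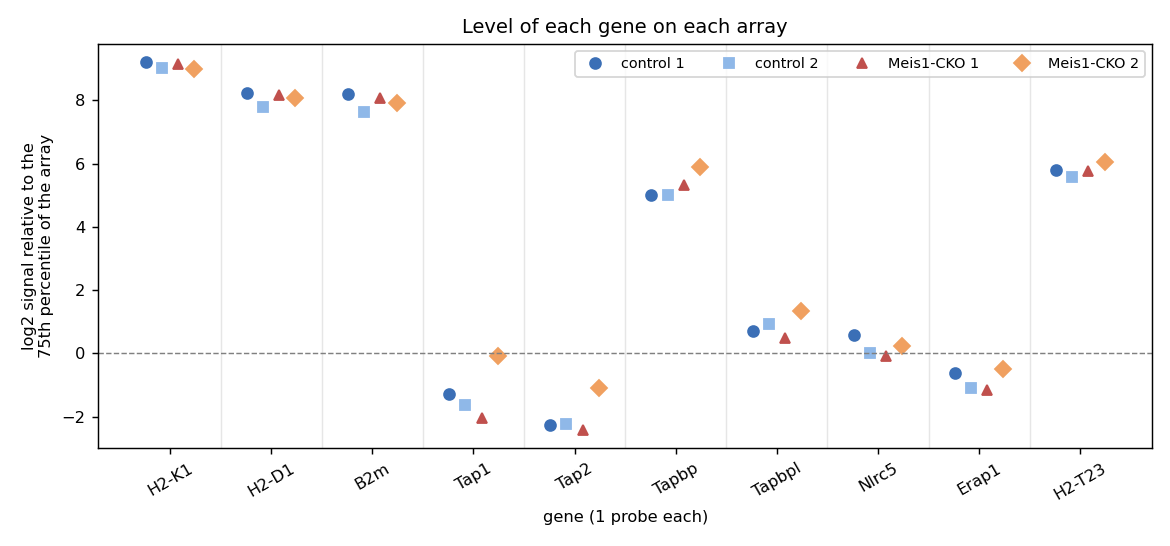
Level of each of the 10 genes on each array, as log2 signal relative to the array's 75th percentile (dashed line at 0), with 1 point per array and 1 probe per gene. Points of H2-K1 nearly coincide (9.0 to 9.20), whereas Tap1 and Tap2 are highest in Meis1-CKO 2 (-0.08 and -1.11). Heights of different genes are readings of different probes and are not comparable.

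The peptide transporter genes had the widest spans over the 4 arrays among the members, and 81.2% of all features had a smaller span than Tap1 and 60.2% than Tap2. They also had the lowest levels among the members, and their spans were not compared with those of features at a like level. In raw processed signal, controls and then Meis1-CKO, Tap1 gave 38, 45, 26 and 144 and Tap2 gave 19, 29, 20 and 71. Tap1, whose product pairs with that of Tap2 to form the transporter, gave -1.28 and -1.62 in the controls, against -2.05 and -0.08 in Meis1-CKO. The 2 Meis1-CKO pools were thus the lowest and the highest of the 4, and they spanned 1.96. The difference of 0.39 (SE 0.73, 95% interval -1.45 to 2.22, limma adjusted p = 1) was smaller than that span. Tap2 gave -2.27 and -2.24 in the controls, against -2.41 and -1.11 in Meis1-CKO. Again Meis1-CKO 1 was lowest and Meis1-CKO 2 highest, and the difference was 0.49 (SE 0.58, 95% interval -0.95 to 1.94). Without Meis1-CKO 2 the differences of Tap1 and Tap2 turned to -0.60 and -0.16, and with normexp background correction they were 0.22 and 0.18.

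Tapbp, which encodes tapasin, the bridge between TAP and the empty heavy chain, was the member whose 2 groups did not overlap. It read 5.01 in both control pools and 5.34 and 5.89 in Meis1-CKO 1 and 2, a difference of 0.61 (SE 0.45, 95% interval -0.53 to 1.74, limma adjusted p = 1). Over all features, 11.1% had both Meis1-CKO arrays above both control arrays and 14.4% had them below, and 25.5% were separated in either direction, so 1 of 10 higher and 0 of 10 lower are near or under that background. Over tested probes 26.1% were separated, and of the 17 tested member probes 2 were (1 each of Tapbp and B2m). Without Meis1-CKO 2 the difference of Tapbp was 0.33. Its other probe had control levels of 0.72 and 0.68 and Meis1-CKO levels of 0.64 and 1.62, with Meis1-CKO 1 lowest, so the separation held for 1 of its 2 probes. Both probes lie in Tapbp on chromosome 17 (positions 34066022 to 34066081 and 34063096 to 34063155 on mm9).

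Tapbpl encodes TAPBPR, a tapasin-related peptide editor that works outside the TAP complex. Its control levels were 0.72 and 0.93, and its Meis1-CKO levels 0.50 and 1.34. The Meis1-CKO pools enclosed the controls, and the difference was 0.09 (SE 0.50, 95% interval -1.15 to 1.33).

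Erap1, which trims peptides to the length that fits class I, had control levels of -0.61 and -1.10 and Meis1-CKO levels of -1.16 and -0.48. Each genotype had a high and a low pool, and the difference was 0.03 (SE 0.49, 95% interval -1.20 to 1.26). A second Erap1 probe, from a clone sequence, was well above background on 0 of 4 arrays and was not tested.

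Nlrc5 (chromosome 8, positions 97044928 to 97044987 on mm9) was the member with the most negative difference. It gave 0.58 and 0.003 in the controls, against -0.07 and 0.23 in Meis1-CKO, where control 1 stood above the other pools. The difference was -0.22 (SE 0.47, 95% interval -1.38 to 0.95), and without control 1 it was 0.07.

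No member passed the test, and neither did any other feature. At an adjusted p under 0.05, limma called 0 of 10 members and 0 of 16841 features (0%), and at an unadjusted p under 0.05 it called 0 members and 470 features (2.79%). The members' median difference was 0.09 against -0.05 over all features, with 8 of 10 members above 0. The intervals of all 10 members included 0. Those of H2-K1, H2-D1 and B2m reached beyond 2-fold (a log2 value of 1) in both directions. The SEs of these genes depended on which features were in the fit. They were 0.43, 0.44 and 0.46 here, and 0.18, 0.24 and 0.29 with no filter on dim probes. The pools were bulk RNA, so a change in the share of cells of a type and a change in RNA per cell cannot be told apart.

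**Figure D3:**
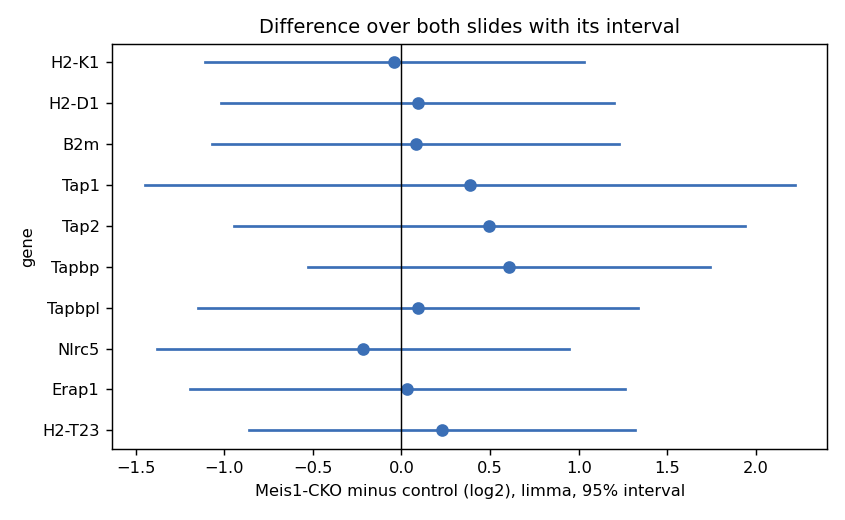
Meis1-CKO minus control difference of each of the 10 genes over both slides (points, log2) with the 95% interval from limma (lines, 2 pools per group). Each interval crosses 0, and that of Tap1 is the widest, from -1.45 to 2.22.

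Within slides, the set moved a little down on slide 1 and up on slide 2. On slide 1, 9 of 10 members were lower in Meis1-CKO, with Tapbp (0.32) the exception and a median of -0.14, where 50.2% of all features were higher. On slide 2, 9 of 10 were higher, with H2-K1 (-0.03) the exception and a median of 0.44, where 43.7% of all features were higher. A total of 8 members were lower on slide 1 and higher on slide 2, as were 23.3% of all features. Each slide held 1 pool per genotype, so the difference between slides could not be tested.

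Tap1 went from -0.77 on slide 1 to 1.54 on slide 2, and Tap2 from -0.15 to 1.13, and these 2 were the members that reached 2-fold on slide 2 (at least 2-fold higher there: 11.3% of features). No member was at least 2-fold lower on slide 2 (17.1% of features), at least 2-fold higher on slide 1 (8.56%) or at least 2-fold lower there (5.93%). On slides 1 and 2, Tapbp was at 0.32 and 0.89, Erap1 at -0.55 and 0.62, and Nlrc5 at -0.66 and 0.22. Tapbpl (-0.22 and 0.40), H2-T23 (-0.03 and 0.48), H2-D1 (-0.08 and 0.27), B2m (-0.14 and 0.30) and H2-K1 (-0.05 and -0.03) stayed within 0.5 of 0 on both slides.

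Control 2 read lowest of the 4 arrays for H2-D1, B2m, Tapbp and H2-T23, though for Tapbp only 0.009 below control 1. Lowest in control 2 were 17.9% of all features. Meis1-CKO 2 was the highest array for 6 members (Tap1, Tap2, Tapbp, Tapbpl, Erap1 and H2-T23), and for 29.1% of all features. Against the mean of the other 3 arrays, Meis1-CKO 2 was at 1.57 for Tap1, 1.20 for Tap2 and 0.77 for Tapbp, but at -0.13 for H2-K1, -0.04 for B2m and -0.004 for H2-D1.

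**Figure D4:**
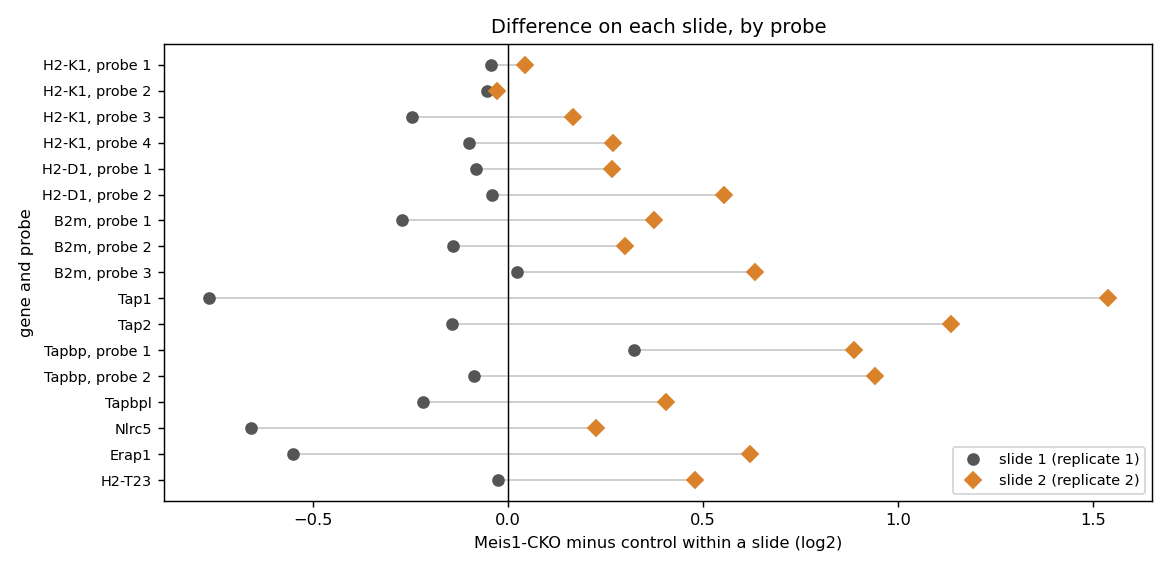
Meis1-CKO minus control within slide 1 (grey circles) and slide 2 (orange diamonds), in log2 units, for the 17 tested probes of the 10 genes. Slide 2 lies to the right of slide 1 for every probe shown, by most for Tap1 (-0.77 and 1.54) and by least for the main H2-K1 probe (-0.05 and -0.03).

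Markers of other cells moved with the same array. The sort should have removed CD45-bearing cells, yet 10 of 10 pan-leukocyte markers, among them Coro1a, Cd52, Lcp1 and Lsp1, were well above background on all 4 arrays. Their summed signal, as a multiple of the 75th percentile, was 34.2 and 39.1 in the controls and 30.5 and 163 in Meis1-CKO 1 and 2. On slide 2 all 10 were higher, as were 43.7% of all features. Ptprc, the CD45 gene of this list, read 1.44 and 1.19 (log2) in the controls and -0.75 and 5.55 in Meis1-CKO 1 and 2. It was chosen after its values were seen. The 21 myeloid and dendritic markers summed to 55.4 and 66.9 in the controls and to 67.9 and 248 in Meis1-CKO 1 and 2, with 21 above background in Meis1-CKO 2 and 14 to 17 elsewhere. Bright genes weigh most in such sums, and Ctss, also listed with class II, read 6.75 (log2) in Meis1-CKO 2. Of 18 tested, 16 were higher on slide 2 (43.7% of all features), but Lyz2 (-0.49) and C1qb (-0.07), chosen after their values were seen, were lower. C1qc, Fcgr3, Itgax and Flt3 passed the filter on dim probes only through the Meis1-CKO arrays, so the filter favoured this count. Of the 18, 13 were above background on all 4 arrays. Leukocytes express class I and loading genes too, and the part of these cells in the member differences was not tested. The 13 TEC markers were above background on all arrays, as a TEC sort requires, and summed to 638 and 500 in the controls and 533 and 245 in Meis1-CKO 1 and 2.

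Thymocyte and T cell markers also differed between pools, in another pattern. They summed to 60.8 and 24.9 in the controls, against 10.4 and 60.6 in Meis1-CKO, with 16 to 20 of 21 above background. On slide 1 their median difference was -1.51 and on slide 2 it was 1.32, so it had the same signs as the members' medians. Bright genes weigh most in this sum too, and Dntt read 5.13 (log2) in control 1. Summed signals of B cell markers stayed between 1.20 and 1.72, with 3 or 4 of 6 above background, and those of erythroid markers between 1.54 and 6.32. Fibroblast markers summed to 8.32 in Meis1-CKO 2 and to 12.6 to 16.7 elsewhere, and endothelial markers to 4.68 in Meis1-CKO 2 and to 1.18 to 1.30 elsewhere. The endothelial sum covers 8 genes, of which 4 passed the filter on dim probes, and of these 1 was higher on slide 2 (median -0.80).

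Interferon response genes, which respond to the same signals as the members, had larger differences on slide 2 than on slide 1. Of 31 tested, 0 passed the test, 14 were higher on slide 1 (median -0.08, against 50.2% of all features higher) and 29 on slide 2 (median 1.86, against 43.7%), with a median difference of 0.87. The RNA-binding antiviral gene Ifit2 went from 0.39 on slide 1 to 4.78 on slide 2, Rsad2, which encodes viperin, from 0.24 to 3.48, and the RNA sensor gene Ifih1 from 0.14 to 1.93. These genes were named for having the smallest p in their list, and others of the list had lower values on slide 2. Among these were Gbp3 at 0.49, Iigp1 at 0.36, Gbp6 at -0.37 and Cxcl10 at -0.57, chosen after their values were seen.

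Proteasome genes make the peptides that TAP carries. Of 18 tested, 0 passed, and the median difference was 0.10 (-0.13 on slide 1 and 0.22 on slide 2). The immunoproteasome subunit genes Psmb8 (-0.04 on slide 1 and 1.76 on slide 2) and Psmb9 (-0.32 and 1.60) lie beside Tap1 and Tap2 in the MHC. Psmb10, also an immunoproteasome subunit gene, was at -0.02 and -0.63 (chosen after its values were seen). On slide 2, 13 of the 18 were higher, as were 43.7% of all features. The proteasome activator gene Psme1 was at -0.01 and 0.97. Psmb11, the thymoproteasome subunit gene of cortical TECs, was at -0.60 and -3.33.

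Other class I and class I-like genes gave 17 tested members, 0 of which passed, with a median difference of 0.12 (-0.03 on slide 1 and 0.29 on slide 2). H2-T22, a non-classical heavy chain gene, read 4.05 and 3.55 in the controls and 4.13 and 4.81 in Meis1-CKO 1 and 2. H2-T24 was separated as well (controls -0.64 and -0.34, Meis1-CKO -0.08 and 0.07). Hfe, a class I-like regulator of iron uptake, was at -0.07 on slide 1 and 3.54 on slide 2, and Procr, the protein C receptor gene, at 0.11 and 0.89. Together 2 of 17 were separated higher and 1 lower, near the shares over all features.

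Chaperones of the endoplasmic reticulum fold class I chains and hold them for loading. Of 16 tested, 0 passed, 4 were separated lower (14.4% of all features) and 0 higher (11.1%), and the median difference was -0.25 (-0.03 on slide 1 and -0.38 on slide 2). Pdia6, a disulfide isomerase gene, read 3.16 and 3.63 in the controls and 2.86 and 2.36 in Meis1-CKO 1 and 2. Pdia4 was at -0.07 and -1.001 on slides 1 and 2, Hsp90b1 at 0.14 and -1.35, and Calr, which encodes the calreticulin of the loading complex, at 0.06 and -1.06. Without Meis1-CKO 2 the median of this list was -0.09.

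Cytosolic peptidases and trimming enzymes had a median difference of 0.17 over 9 genes, 0 of which passed, with Lnpep, an aminopeptidase of endosomes, at -0.004 on slide 1 and 1.55 on slide 2 and Tpp2 at -0.39 and -0.28. MHC class II genes and their partners had a median of 0.18 over 11 genes (-0.06 on slide 1 and 0.48 on slide 2), 0 of which passed. Among them were Ctss (0.29 and 2.06), H2-DMa (-0.38 and 1.72), H2-Eb1 (-0.02 and 1.15) and H2-Aa (-0.07 and 0.69). On slide 2, 9 of the 11 were higher, as were 43.7% of all features. H2-DMb2 (0.15 and -0.72) and H2-Oa (0.14 and -0.61), chosen after their values were seen, were lower there.

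**Figure D5:**
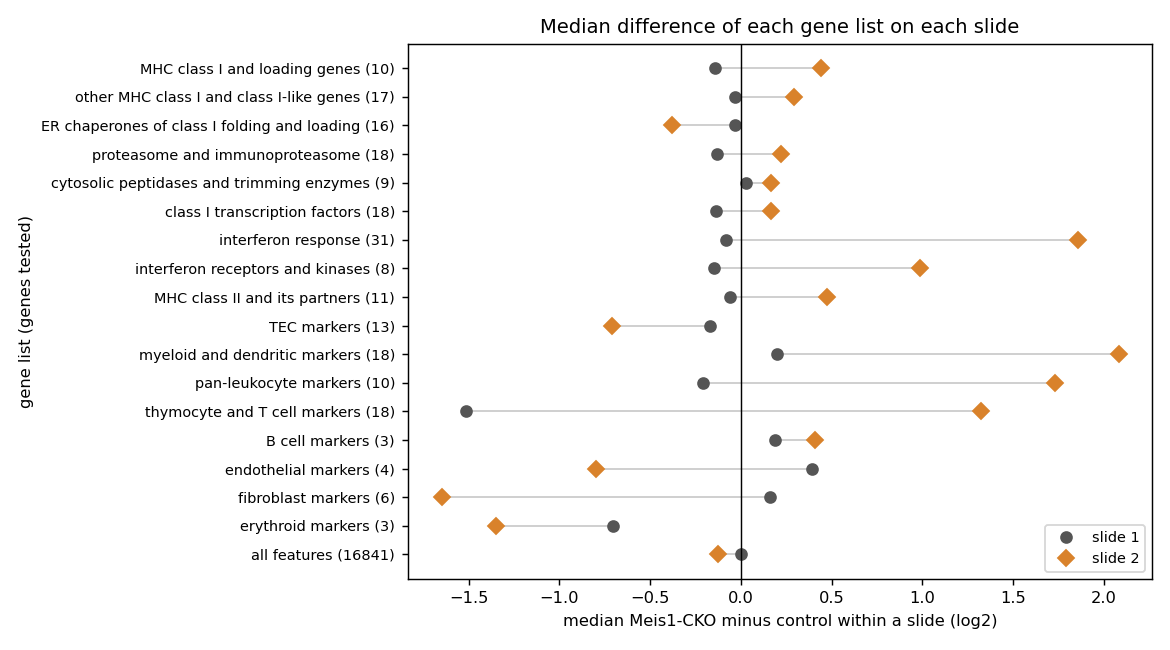
Median Meis1-CKO minus control difference within slide 1 (grey circles) and slide 2 (orange diamonds), in log2 units, for the class I and loading genes, 16 other gene lists and all features, with the number of genes tested in brackets. The class I and loading genes lie at -0.14 and 0.44, the interferon response genes at -0.08 and 1.86 and all features at 0.00 and -0.12.

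The members' mean profile, centred per gene, stood at 0.04 and -0.22 in the controls, against -0.19 and 0.36 in Meis1-CKO. H2-T23 (Euclidean distance 0.20) and Erap1 (0.23) lay nearest to it and Tap1 (1.02) farthest. Among 12347 other genes above background on all arrays, Trmt1l (0.02), Asl (0.04), Bag1 (0.05), Lrrk2 (0.05) and Tbx2 (0.05) were closest. A profile over 4 arrays is short.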

How the data were processed

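Gene expression in 4 pools of sorted TECs was measured on 4 single-colour Agilent arrays. The scanner files deposited by the authors hold linear spot intensity values that were background-subtracted and detrended within each array, per the file headers, by Agilent Feature Extraction 9.5.3.1, with low values replaced by surrogates and no scaling between arrays. The value table deposited by the authors holds log2 values, and no source here says how they were made. Over 20818 probes its differences between arrays matched those of the scaled scanner values (slope 1, correlation 1), and each of its rows was centred on a median of 0. Its column medians were 0.04, 0.09, -0.06 and -0.12 for control 1, control 2, Meis1-CKO 1 and Meis1-CKO 2.

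Here log2 processed signals were scaled by subtracting the array's 75th percentile (control spots left out). Outlier spots (63 to 78 per array) and 1639 control spots were left out, and spots of a probe were averaged. Probes were kept if both arrays of at least 1 group were well above background (24267), and the one with the highest mean stood for its gene (16841 features). Symbols were updated through RefSeq (GRCm38.p6), 26690 probes by accession. The test was limma 3.58.1 (lmFit, eBayes, 5.51 degrees of freedom) in R 4.3.3, with Benjamini-Hochberg adjustment over all features at 0.05. The fit was tested on simulated data, where no gene changed 2-fold was called and most of those given the largest change were. The number of arrays limits the precision.

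The members, lists and tests were chosen with earlier results of these data known. The genes named are all 10 members, up to 4 genes with the smallest p of each other list, and the 5 genes nearest to the members' mean profile. Some other genes of the lists were named after their values were seen. Alternatives covered scaling, background correction, the value table, filters, the choice of probe, the slide as a block and each array left out. Slide, scan and replicate number coincide. The design names 2 experiments without saying which arrays belong to which, and deviations of same-numbered arrays had a correlation of 0.13, so the block is an alternative.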

Additional observations from a re-analysis of the deposited data

How the results depend on the processing

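No member passed limma's test under any of the 13 alternatives, and adjusted p-values of the members ran from 0.266 to 1. Tapbp and H2-T23 kept their direction throughout (0.33 to 0.88 and 0.09 to 0.37). With 1 array left out, differences ran from -0.13 to 0.048 for H2-K1, -0.13 to 0.32 for H2-D1, -0.21 to 0.37 for B2m, -0.60 to 1.37 for Tap1, -0.16 to 1.15 for Tap2, -0.33 to 0.51 for Tapbpl, -0.51 to 0.074 for Nlrc5 and -0.31 to 0.38 for Erap1, so the sign of each of these 8 turned at least once. H2-K1 also turned with normexp background correction (0.017) and with the mean of its probes (4.8e-04). Normexp also moved Tap1 to 0.22, Tap2 to 0.18, B2m to 0.15 and Nlrc5 to -0.098. The members' median ran from -0.062 without Meis1-CKO 2 to 0.37 without Meis1-CKO 1, and the members with separated arrays from 4 to 7 where fewer arrays had to separate. They were 2 with quantile normalization and 3 with normexp. The share of all features separated was not counted under these alternatives, so these counts have no background to be read against. Without Meis1-CKO 1, limma called 202 features higher and 119 lower in Meis1-CKO 2, on the assumption that a lone array varies like the others, and 0 without any other array (0 to 202 and 0 to 119).

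With the slide as a replicate block, limma called 0 features in each direction (667 at an unadjusted p under 0.05) and 0 members, and changed no member's direction. Within slides 1 and 2 (pairing by replicate block) list medians were -0.034 and 0.29 for other class I genes, -0.034 and -0.38 for chaperones, -0.13 and 0.22 for proteasome genes, 0.026 and 0.17 for peptidases, -0.14 and 0.17 for class I transcription factors, -0.081 and 1.86 for interferon response, -0.15 and 0.99 for interferon receptors, -0.060 and 0.48 for MHC class II, -0.17 and -0.71 for TEC, 0.20 and 2.08 for myeloid, -0.21 and 1.73 for pan-leukocyte, -1.51 and 1.32 for thymocyte, 0.19 and 0.41 for B cell, 0.39 and -0.80 for endothelial, 0.16 and -1.65 for fibroblast and -0.70 and -1.35 for erythroid genes. With 1 array left out, the medians of these lists, in the same order, ran from -0.067 to 0.31, -0.38 to -0.088, -0.086 to 0.18, -0.060 to 0.12, -0.30 to 0.44, -0.025 to 1.68, -0.20 to 0.97, 0.11 to 0.41, -1.16 to -0.10, -0.019 to 2.13, -0.26 to 1.65, -1.09 to 1.04, -0.23 to 0.16, -0.66 to 0.44, -1.49 to 0.79 and -1.58 to 0.21. The cause of these changes was not tested. Signal over background limits Rfxank, which was above background on 1 of 2 control arrays.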

Other observations

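Receptors and kinases of interferon signalling had a median log2 difference of 0.32 over 8 genes, 0 of which passed limma's test. Jak2, a kinase of the interferon-gamma receptor, stood at -0.21 and -0.14 in the controls, against -0.07 and 2.15 in Meis1-CKO. Il10rb, a receptor chain shared with interferon-lambda, read -0.54 and -0.18 in the controls and -0.04 and 0.55 in Meis1-CKO. Ifnar1 (-0.15 on slide 1 and 0.80 on slide 2) and Ifnar2 (-0.47 and 1.24), the chains of the type I interferon receptor, changed sign between slides.

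Transcription factors that act on class I promoters had a median of 0.11 over 18 genes, 0 of which passed. Irf8 read 1.82 and 1.89 in the controls and 2.25 and 3.41 in Meis1-CKO 1 and 2, and Stat2 was at -0.39 on slide 1 and 3.01 on slide 2. Nfyc, a subunit of the factor that binds ATTGG, was lower on both slides (-0.86 and -0.62). Rfxank, a subunit of the RFX complex at the X box, was well above background on 1 of 2 control arrays (-3.22, not above it, and -2.70) and on both Meis1-CKO arrays (-2.23 and -2.46).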
